A study of Mus musculus with 12 samples.

Results

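The genes described here are 45 genes of skeletal muscle, read in samples of mouse skin. They encode proteins of the sarcomere, of calcium release and uptake, of muscle energy metabolism and a few other muscle proteins. The list was drawn up by name, with earlier results of these data known, and no threshold on a value was used. A probe matched 44 of the 45 through its RefSeq transcript, Smpx being the exception. Where several probes read a gene, the one with the brightest mean was taken. All 44 passed the filter on dim probes, among 16177 genes tested. The skin came from 12 male mice of a mixed C57Bl6/129Sv background, 1 array per mouse, 12 days after plucking, in a study of what Sox4 contributes to hair regrowth. Sox4 was intact in wild type mice (WT) and conditionally deleted in the skin of the others (cKO). Exp 1 used mice aged 68 to 72 weeks and Exp 2 mice aged 16 to 20 weeks, 3 per genotype in each case, so that age and experiment cannot be told apart. What drives the deletion, the body site and the depth of the skin piece are not stated in the labels.

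Mouse skin has a thin sheet of striated muscle, the panniculus carnosus, below the dermis and its fat. In such fibres thick filaments of myosin slide along thin filaments of actin when calcium binds troponin, and Z-discs, titin and desmin hold the filaments in place. Fast and slow fibres use different genes for the same parts, so that a fast troponin or myosin gene has a slow counterpart. All levels below are log2 array signals, each with the 75th percentile of its own array subtracted, and since each probe has its own response, a gene's level is compared between mice and never with that of another gene. Values are listed by mouse number: WT mice 1, 2 and 3 and cKO mice 2, 5 and 6 belong to Exp 1, and WT mice 4, 5 and 6 and cKO mice 1, 3 and 4 to Exp 2. In whole skin, fewer muscle fibres and less RNA per fibre cannot be told apart.

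The DNA before the start sites of 7 members is shown first, to give the letters they do and do not share. Whether these letters bear on the levels between mice was not tested. RefSeq promoter windows of build GRCm38.p6 (250 bases before to 50 after the start, all searched) were found for 37 of the 45 genes, in 43 windows. The E-box CAGCTG, a case of the general E-box CANNTG that basic helix-loop-helix proteins such as MyoD bind, was in 22 of these 43 windows (51.2%) against 16.3% of all 32851 windows. CANNTG was in 83.7% of member windows and 72.3% of all windows. The MEF2 motif, named for a family of muscle transcription factors, was in 18.6% against 3.19%. The CArG box, the motif of serum response factor, was in 11.6% against 1.63%. All 4 motifs read the same on both strands, and a match describes the letters only. Myh1, Myh2, Myh4 and Myh8 lie next to each other on chromosome 11 and encode fast and perinatal myosin heavy chains, whereas Myh7, on chromosome 14, encodes the slow one. Capitals mark CAGCTG, the MEF2 motif and the CArG box, and each line gives the 250 bases before the start, 5′ to 3′ along the gene. The windows are chr11:67237562-67237811, chr11:67199852-67200101, chr11:67170777-67171026 and chr11:67276874-67277123 on the plus strand, chr14:54994627-54994876 on the minus strand, chr8:123894776-123895025 on the minus strand and chr1:75360042-75360291 on the plus strand.
Myh4: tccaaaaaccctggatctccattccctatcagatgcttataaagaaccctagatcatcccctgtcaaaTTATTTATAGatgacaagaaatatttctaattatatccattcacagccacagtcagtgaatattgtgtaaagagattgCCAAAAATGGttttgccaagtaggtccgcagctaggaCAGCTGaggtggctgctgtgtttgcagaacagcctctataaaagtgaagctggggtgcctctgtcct
Myh1: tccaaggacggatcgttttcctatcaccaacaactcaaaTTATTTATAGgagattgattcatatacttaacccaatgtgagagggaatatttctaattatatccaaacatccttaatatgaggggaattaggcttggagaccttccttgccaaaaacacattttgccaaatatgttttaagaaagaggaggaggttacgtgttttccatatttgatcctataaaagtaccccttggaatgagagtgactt
Myh2: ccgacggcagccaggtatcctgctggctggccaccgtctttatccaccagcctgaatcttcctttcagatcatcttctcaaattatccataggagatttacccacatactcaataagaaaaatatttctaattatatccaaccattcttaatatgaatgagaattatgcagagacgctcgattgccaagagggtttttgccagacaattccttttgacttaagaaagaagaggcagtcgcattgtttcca
Myh8: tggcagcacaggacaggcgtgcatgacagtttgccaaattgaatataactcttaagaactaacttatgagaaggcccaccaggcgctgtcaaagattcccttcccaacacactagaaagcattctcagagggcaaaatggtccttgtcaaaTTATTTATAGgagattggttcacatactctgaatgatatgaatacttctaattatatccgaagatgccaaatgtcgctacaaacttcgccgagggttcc
Myh7: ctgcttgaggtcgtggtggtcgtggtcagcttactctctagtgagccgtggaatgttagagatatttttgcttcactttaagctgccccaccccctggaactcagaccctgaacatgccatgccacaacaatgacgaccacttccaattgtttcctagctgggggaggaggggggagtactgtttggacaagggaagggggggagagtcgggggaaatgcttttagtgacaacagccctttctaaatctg
Acta1: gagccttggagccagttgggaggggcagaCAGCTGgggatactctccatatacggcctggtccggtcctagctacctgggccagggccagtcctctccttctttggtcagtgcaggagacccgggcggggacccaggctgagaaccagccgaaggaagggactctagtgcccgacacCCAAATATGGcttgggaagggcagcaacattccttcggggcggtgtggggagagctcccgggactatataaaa
Des: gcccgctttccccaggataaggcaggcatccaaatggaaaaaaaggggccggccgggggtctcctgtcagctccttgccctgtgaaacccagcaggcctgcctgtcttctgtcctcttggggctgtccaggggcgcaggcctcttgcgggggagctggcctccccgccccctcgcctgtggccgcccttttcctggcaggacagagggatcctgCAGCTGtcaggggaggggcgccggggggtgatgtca
The same MEF2 match, TTATTTATAG, began 182 bases before the start of Myh4, 211 before that of Myh1 and 99 before that of Myh8. Myh4 also held a CArG box 104 bases and a CAGCTG 67 bases before its start. Acta1 had its CArG box 73 bases and Des its CAGCTG 36 bases before the start. The windows of Myh2 and Myh7 held none of the 3 marked motifs.

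The arrays had between 53.9% and 62.6% of probes well above background and no saturated probe. Sox4 itself, the targeted gene, lay between 1.90 and 2.43 in the 6 WT mice and between -4.26 and -2.55 in the 6 cKO mice. Genes of the labelled tissue were present in every mouse: the log2 of the summed signal of 10 keratinocyte and dermis genes lay between 11.20 and 11.52 in WT and between 11.02 and 11.99 in cKO skin. The array of cKO mouse 5 stood apart from the others in having the lowest mean levels of hair follicle and adipocyte genes. The counts of members called between experiments are also given without it, as is the members' median genotype difference in the older mice. Differences of single genes and of the adipocyte, hair follicle and other marker lists are given with it only.

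The muscle genes split the mice in the same way almost throughout. For 40 of the 44 members the 5 highest mice were WT mice 4 and 6 and cKO mice 1, 3 and 4, all of Exp 2. The exceptions were Myh7, Tnnt1, Tnni1 and Tnnc1, all of slow fibres. Among those 40, the step from the fifth to the sixth highest mouse ranged from 0.49 for Xirp1 to 4.90 for Apobec2 on the log2 scale, with a median of 3.77. Averaged over the members, each centred on its mean over the 12 mice, the 5 mice lay between 2.91 and 3.93 and the other 7 between -3.83 and -0.75. The sixth mouse of Exp 2, WT mouse 5, lay at -1.77, below cKO mice 5 and 6 of Exp 1 at -0.75 and -0.87. The lowest were WT mice 1, 2 and 3 at -2.99, -3.71 and -3.83 and cKO mouse 2 at -3.16. Exp 2 therefore held 5 mice with strong muscle signal and 1 without, and Exp 1 held none with it.

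**Figure D1:**
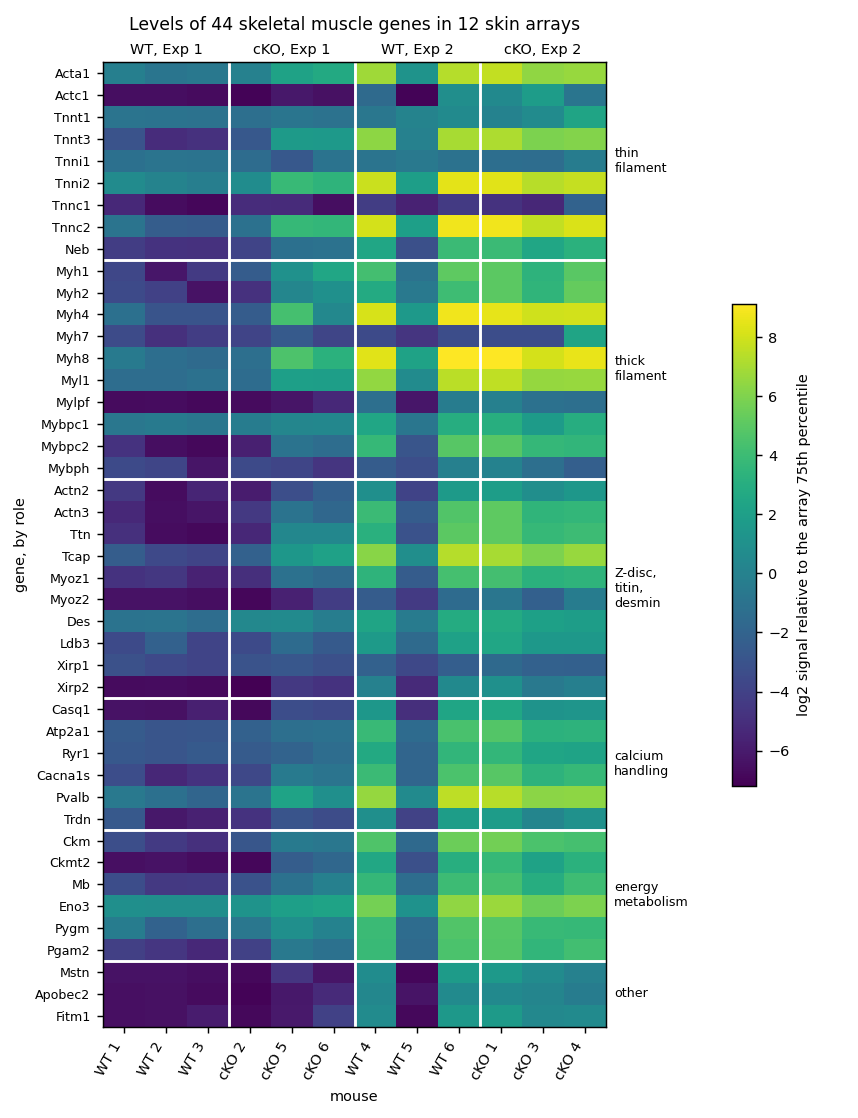
Log2 signal relative to the array's 75th percentile (colour) of the 44 genes with a probe (vertical axis, by role) in the 12 mice (horizontal axis, by genotype and experiment). WT mice 4 and 6 and cKO mice 1, 3 and 4 are bright for nearly every gene, while WT mouse 5 is not, and Tnnt1, Tnni1, Tnnc1 and Myh7 differ from the rest.

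The size of these differences was large for skin. The range over the 12 mice was 2.23 for Xirp1 at the smallest and 12.29 for Tnnt3 at the largest, with a median of 8.67, against a median of 0.93 over all genes tested. Detection followed: 43 or 44 of the 44 members were well above background in each of the 5 high mice and 20 to 36 in each of the other 7. Of the members, 18 were above background on all 12 arrays and 6 (Actc1, Mylpf, Tnnc1, Mstn, Apobec2 and Xirp2) on 5 arrays or fewer. Whether the signal in the 7 low mice came from muscle fibres was not tested. Across the 12 mice the correlation of a member with the mean of the other members had a median of 0.98 and was at least 0.9 for 39 members. The points of these correlations share the array and its scaling, and the figures are descriptions. The lowest were Tnni1 at 0.09, Myh7 at 0.48, Tnnc1 at 0.69, Tnnt1 at 0.70 and Mybph at 0.83. The 5 high mice were spread over 3 slides and the other 7 over 2 of them. By the column number in the barcode, all WT mice of Exp 1 were in column 2 and all WT mice of Exp 2 in column 1. Column and experiment therefore cannot be told apart within WT. Of the high cKO mice, 1 and 4 were in column 1 and 3 in column 2. The arrays of the 5 high mice had 59.8% to 62.6% of probes above background against 53.9% to 60.8% in the others. The part of array position and of this share in the result was not tested.

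Mice of Exp 1 were compared with mice of Exp 2 within each genotype. Within cKO skin, 32 of 44 members were lower in Exp 1 at an adjusted p under 0.05 in limma, and none was higher. Over all genes tested, 9.98% passed, 4.6% as lower. The median difference of the members, Exp 1 minus Exp 2, was -5.44 on the log2 scale against 0.03 over all genes, and all 44 were negative. For 41 members the 3 mice of one experiment did not overlap the 3 of the other, where 31.2% of all genes did not overlap; the exceptions were Myh7, Tnni1 and Tnnc1. Within WT skin the median difference was -5.38 against -0.01 over all genes, and again all 44 were negative, but only Tcap passed the test, where 0.841% of all genes passed, 0.47% as lower. The groups did not overlap for 34 members (28% of all genes). Without WT mouse 5, 39 members passed and the median was -7.65. The count was 23 with median scaling in place of the 75th percentile. It was 16, 4 and 2 without cKO mouse 5, 2 and 6, and 0 without any of the other 8 mice. The share of all genes that passed is given for the main fit only.

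The count within cKO skin also rested on few mice. It was 0 without cKO mouse 4, 1 without cKO mouse 2, 1 without cKO mouse 3, 2 without cKO mouse 1 and 3 without cKO mouse 5. Without cKO mouse 6 it was 28. Leaving out WT mice 1, 2, 3, 4, 5 or 6, which enter through the shared spread, gave 13, 15, 12, 19, 39 and 30. With the slide as a block it was 1. Fits within slide 1 had 1 cKO mouse of Exp 2 and 2 of Exp 1. Those within slide 2 had 1 cKO mouse of each experiment (mice 4 and 5) and a spread taken from WT mice 4 and 6 alone. Counts from fits within a slide are listed only among the alternatives at the end. Some of their groups are single mice, so no conclusion is drawn from those counts. The direction held more widely than the call: all members tested were lower in Exp 1 in 25 of 26 alternatives within cKO, the exception being Tnni1 within slide 1, and in 21 of 26 within WT. Each count includes leaving out each of the 6 mice of the other genotype. That cannot change these differences, so those alternatives repeat the main signs and add no support.

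Among the thin filament genes, 6 of 9 were lower in Exp 1 within cKO skin, with a median of -5.22. Acta1, the actin of adult skeletal muscle, read -0.11, -0.87 and -0.64 in WT and -0.02, 2.19 and 2.73 in cKO skin of Exp 1. It read 6.81, 1.23 and 7.30 in WT and 7.67, 6.45 and 6.64 in cKO skin of Exp 2. The cKO mice of the 2 experiments did not overlap, and WT mouse 5 lay closer to Exp 1 than to its own group. The difference was -5.29 (SE 1.35, adjusted p = 0.0389) within cKO and -5.65 (SE 1.35, adjusted p = 0.0747) within WT in limma, 39-fold and 50.2-fold lower in Exp 1. Actc1, the actin of heart and of developing skeletal muscle, was above background in the 5 high mice only. Its levels were -1.53, -7.03 and 0.90 in WT and 0.59, 1.84 and -0.87 in cKO skin of Exp 2, where cKO mouse 3 was highest, and between -7.06 and -6.16 in Exp 1. It was at least 30.4-fold lower in Exp 1 within cKO (fitted difference -7.07 (SE 1.55, adjusted p = 0.0266) in limma). Neb, which encodes nebulin, the ruler of the thin filament, read -4.22, -4.77 and -4.87 in WT and -3.83, -1.15 and -1.05 in cKO skin of Exp 1. It read 2.50, -3.22 and 3.92 in WT and 3.97, 2.45 and 3.22 in cKO skin of Exp 2. Its difference within cKO, -5.22 (SE 1.51, adjusted p = 0.0539) in limma, did not pass.

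The troponins set fast against slow forms of the same 3 subunits. Tnnc2, fast troponin C, which binds calcium, read -0.90, -2.37 and -2.53 in WT and -1.12, 3.74 and 3.65 in cKO skin of Exp 1. It read 8.12, 2.01 and 8.80 in WT and 8.82, 7.67 and 8.21 in cKO skin of Exp 2. Its slow counterpart Tnnc1 read -5.31, -6.68 and -6.89 in WT and -5.12, -5.21 and -6.56 in cKO skin of Exp 1. In Exp 2 its values were -4.25, -5.65 and -4.42 in WT and -4.77, -5.37 and -2.05 in cKO skin, above background on 4 of 12 arrays in all. The fast gene was 70.7-fold lower in Exp 1 within cKO, -6.14 (SE 1.72, adjusted p = 0.0494) in limma, and the slow one did not pass at -1.57 (SE 0.816, adjusted p = 0.239). Tnni2, fast troponin I, the inhibitory subunit, read 0.69, 0.14 and -0.18 in WT and 0.77, 3.84 and 3.45 in cKO skin of Exp 1. It read 7.81, 1.96 and 8.47 in WT and 8.39, 7.41 and 7.71 in cKO skin of Exp 2. Tnni1, slow troponin I, stayed within a narrow band in 11 mice: -1.14, -0.88 and -0.95 in WT and -1.40, -2.67 and -0.97 in cKO skin of Exp 1, and -0.90, -0.60 and -1.04 in WT and -1.27, -1.37 and -0.33 in cKO skin of Exp 2. Only cKO mouse 5, at -2.67, left that band. The difference within cKO was -5.15 (SE 1.45, adjusted p = 0.0498) for Tnni2 and -0.69 (SE 0.398, adjusted p = 0.288) for Tnni1 in limma. Tnnt3, fast troponin T, which ties troponin to tropomyosin, had the widest range of all members. It read -2.996, -5.15 and -4.84 in WT and -2.67, 1.70 and 1.56 in cKO skin of Exp 1, and 6.36, -0.01 and 7.002 in WT and 7.14, 5.91 and 6.12 in cKO skin of Exp 2. Slow Tnnt1 read -0.92, -0.99 and -1.04 in WT and -1.25, -0.85 and -1.03 in cKO skin of Exp 1, and -0.72, 0.08 and 0.60 in WT and 0.04, 0.69 and 2.36 in cKO skin of Exp 2. Within cKO both passed in limma, Tnnt3 at -6.19 (SE 1.73, adjusted p = 0.0488) and Tnnt1 at -2.07 (SE 0.506, adjusted p = 0.0339), the first 73-fold and the second 4.21-fold lower in Exp 1. Within WT neither passed, Tnnt3 at -8.78 (SE 1.73, adjusted p = 0.0506).

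Of 10 thick filament genes, 6 were lower in Exp 1 within cKO skin, with a median of -5.54. Myh4 encodes the myosin of the fastest fibres, IIb. It read -1.16, -2.94 and -2.95 in WT and -2.41, 4.34 and 0.41 in cKO skin of Exp 1. It read 8.12, 1.55 and 8.80 in WT and 8.54, 7.93 and 8.03 in cKO skin of Exp 2. Within Exp 1, cKO mouse 5 was far above the other 5 mice. The difference was -7.39 (SE 1.93, adjusted p = 0.0407) within cKO in limma, or 167-fold, the largest of the members there. Myh1, the myosin of IIx fibres, read -3.74, -6.19 and -4.41 in WT and -2.44, 1.06 and 2.45 in cKO skin of Exp 1, and 4.25, -1.03 and 5.09 in WT and 5.01, 3.39 and 4.96 in cKO skin of Exp 2. Myh2, the myosin of IIa fibres, read -3.55, -4.05 and -6.38 in WT and -4.85, 0.31 and 1.02 in cKO skin of Exp 1, and 2.79, -0.61 and 4.06 in WT and 5.02, 3.51 and 5.28 in cKO skin of Exp 2. Here cKO mouse 4 was highest, and within cKO Myh2 passed at -5.78 (SE 1.58, adjusted p = 0.0462) while Myh1 did not at -4.10 (SE 1.6, adjusted p = 0.127) in limma. Myh8, perinatal myosin, read -0.45, -1.31 and -1.57 in WT and -1.23, 4.60 and 3.27 in cKO skin of Exp 1, and 8.42, 2.21 and 9.14 in WT and 9.12, 8.07 and 8.57 in cKO skin of Exp 2. It was 82.9-fold lower in Exp 1 within cKO, -6.37 (SE 1.78, adjusted p = 0.0492) in limma. A second Myh8 probe was above background in the 5 high mice only, and probes of these near-identical neighbours can read each other's transcripts.

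Myh7, the slow myosin, stood apart from its fast relatives. It read -3.46, -4.90 and -4.21 in WT and -3.82, -2.55 and -3.75 in cKO skin of Exp 1. It read -3.52, -4.69 and -3.35 in WT and -3.31, -3.34 and 2.32 in cKO skin of Exp 2. A single animal, cKO mouse 4, was 4.87 log2 units (29.3-fold) above the next mouse, and the other 11 lay between -4.90 and -2.55. Neither difference between experiments passed in limma, -1.93 (SE 1.26, adjusted p = 0.35) within cKO and -0.34 (SE 1.26, adjusted p = 0.917) within WT. Without cKO mouse 4 the first was -0.05. The fast light chains followed the fast heavy chains. Myl1 was 67.6-fold lower in Exp 1 within cKO, -6.08 (SE 1.51, adjusted p = 0.0356) in limma. Mylpf, the regulatory light chain, was above background in the 5 high mice only and at least 12.3-fold lower, -5.30 (SE 1.19, adjusted p = 0.0274) in limma. Of the myosin binding proteins, fast Mybpc2 passed at -6.74 (SE 1.85, adjusted p = 0.0464), while slow Mybpc1 at -2.51 (SE 0.8, adjusted p = 0.0738) and Mybph at -2.85 (SE 0.93, adjusted p = 0.0779) in limma did not.

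**Figure D2:**
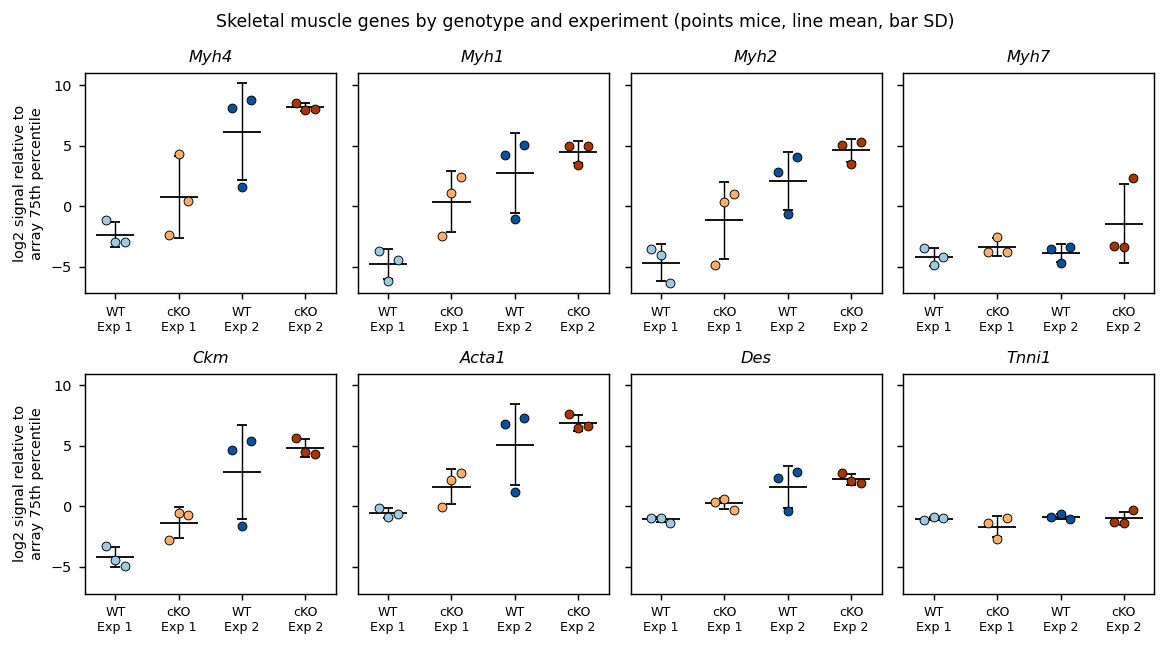
Log2 signal relative to the array's 75th percentile (vertical axis) of 8 members by genotype and experiment (horizontal axis); points are mice, the line is the group mean and the bar the SD of 3 mice. Myh4, Myh1, Myh2, Ckm, Acta1 and Des are high in 5 of the 6 mice of Exp 2, Myh7 is high only in cKO mouse 4, and Tnni1 is flat apart from cKO mouse 5.

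Among the 10 genes of the Z-disc, titin and the intermediate filament that had a probe, 7 were lower in Exp 1 within cKO skin, with a median of -5.40. Ttn encodes titin, the spring that spans from Z-disc to M-line. It read -4.93, -6.63 and -6.83 in WT and -5.35, 0.38 and 0.34 in cKO skin of Exp 1. It read 3.17, -3.07 and 5.01 in WT and 5.12, 3.75 and 3.99 in cKO skin of Exp 2. Its spread was wide and it did not pass within cKO, -5.83 (SE 1.99, adjusted p = 0.0872) in limma. Tcap, the titin cap at the Z-disc, read -2.35, -3.58 and -3.84 in WT and -2.09, 1.46 and 2.13 in cKO skin of Exp 1, and 6.24, 0.86 and 7.34 in WT and 7.02, 5.95 and 6.62 in cKO skin of Exp 2. It passed in both genotypes in limma, at -8.07 (SE 1.53, adjusted p = 0.0455) within WT and -6.03 (SE 1.53, adjusted p = 0.0381) within cKO. Des, which encodes desmin, is also used by smooth muscle, and its range was smaller. It read -0.95, -0.91 and -1.35 in WT and 0.41, 0.63 and -0.26 in cKO skin of Exp 1, and 2.37, -0.38 and 2.85 in WT and 2.78, 2.08 and 1.91 in cKO skin of Exp 2. Within cKO it did not pass, -1.99 (SE 0.68, adjusted p = 0.0872) in limma. Ldb3, a Z-disc scaffold, read -3.53, -2.13 and -3.84 in WT and -3.49, -1.46 and -2.55 in cKO skin of Exp 1, and 1.69, -1.52 and 2.13 in WT and 2.46, 1.50 and 1.51 in cKO skin of Exp 2. Its difference within cKO was -4.32 (SE 0.896, adjusted p = 0.0228) in limma, or 20-fold. Myoz2, a calcineurin-binding Z-disc protein of slow fibres, had the smallest p of all members within cKO. In the cKO mice of Exp 1 it never rose above background, and it was at least 9.85-fold lower there, -4.50 (SE 0.807, adjusted p = 0.017) in limma. Actn3, the fast-fibre actinin, differed by -6.47 and Actn2 by -5.23, both called. Fast Myoz1 at -6.18 and Xirp2 (at least 22.5-fold) were also called, and Xirp1 at -0.9999 was not.

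Calcium handling genes gave 5 of 6 lower in Exp 1 within cKO skin, with a median of -5.49. Pvalb, parvalbumin, buffers calcium in fast fibres. It read -0.60, -1.19 and -1.84 in WT and -0.91, 2.25 and 0.95 in cKO skin of Exp 1. It read 6.54, 0.63 and 7.49 in WT and 7.36, 6.32 and 6.36 in cKO skin of Exp 2. The cKO mice of the 2 experiments did not overlap, with a difference of -5.92 (SE 1.49, adjusted p = 0.0372) in limma. Atp2a1, the fast-fibre calcium pump, fell from 4.79, 3.30 and 3.36 in cKO mice of Exp 2 to -2.14, -1.21 and -1.09 in those of Exp 1, -5.30 (SE 1.24, adjusted p = 0.0306) in limma. Ryr1, the calcium release channel, differed by -4.72, its voltage sensor Cacna1s by -5.68 and the calcium store protein Casq1 by -6.30, all called. Trdn, triadin, which anchors that store to the channel, did not pass at -4.78 (SE 1.4, adjusted p = 0.0558) in limma.

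Energy metabolism genes gave 5 of 6 lower within cKO skin, with a median of -5.64. Ckm, muscle creatine kinase, which recharges ATP from phosphocreatine, read -3.30, -4.42 and -4.90 in WT and -2.79, -0.52 and -0.71 in cKO skin of Exp 1. It read 4.67, -1.59 and 5.44 in WT and 5.69, 4.53 and 4.34 in cKO skin of Exp 2. WT mouse 5 lay beside the cKO mice of Exp 1, and the difference was -6.19 (SE 1.52, adjusted p = 0.0342) within cKO and -7.04 (SE 1.52, adjusted p = 0.0616) within WT in limma. Mb, myoglobin, the oxygen store, read -3.30, -4.51 and -4.40 in WT and -3.06, -1.10 and -0.11 in cKO skin of Exp 1, and 3.68, -1.35 and 4.03 in WT and 4.33, 2.99 and 4.08 in cKO skin of Exp 2. Within cKO it was 37.3-fold lower in Exp 1, -5.22 (SE 1.26, adjusted p = 0.0333) in limma. The glycolytic enzyme Pgam2 differed by -6.07 (SE 1.41, adjusted p = 0.0298) in limma, mitochondrial creatine kinase Ckmt2 by -6.73 and muscle enolase Eno3 by -4.17, all called. Pygm, muscle glycogen phosphorylase, did not pass at -4.04 (SE 1.3, adjusted p = 0.0747) in limma. The last 3 members were all called: Mstn, the muscle growth inhibitor myostatin, at least 35.6-fold lower, Apobec2, a deaminase relative, at least 23.8-fold lower, and the lipid droplet protein Fitm1 at -6.57. Mstn was above background on the 5 high arrays only.

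Fast and slow fibre members were then set side by side. The 14 fast members had a median difference between experiments of -6.11 within cKO and -6.75 within WT, and 13 of them passed within cKO. The 6 slow members had medians of -2.001 and -1.24, and 2 of them, Myoz2 and Tnnt1, passed within cKO. Without cKO mouse 4 no member passed, fast or slow, and the slow median was -0.99 (Tnnt1 -1.41, Myoz2 -4.11). By mouse, the centred fast mean ran from -4.99 in WT mouse 3 to 4.85 in cKO mouse 1, and the centred slow mean from -1.27 in WT mouse 3 to 2.97 in cKO mouse 4. The correlation of the means over the 12 mice was 0.86, a description over points that share an array. In the 4 other high mice the slow mean was 0.51 to 1.03, although their fast means of 3.64 to 4.85 bracketed the 3.99 of cKO mouse 4. Of the slow members, Tnnt1, Tnni1 and Mybpc1 were well above background on all 12 arrays, Myh7 on 11, Myoz2 on 6 and Tnnc1 on 4.

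**Figure D3:**
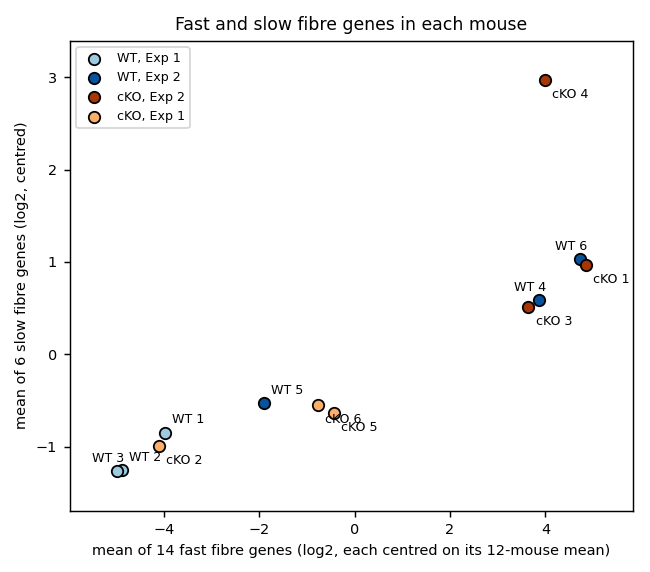
Mean centred log2 level of the 14 fast (horizontal axis) and 6 slow (vertical axis) fibre members in each of the 12 mice, coloured by group. The 4 other high mice sit near 0.51 to 1.03 on the slow axis, while cKO mouse 4 sits at 2.97 with a fast mean of 3.99.

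Of 9 slow fibre genes outside the 44, 5 were highest in cKO mouse 4 and 4 were not. Myl2, the slow regulatory light chain, was 1.13 in cKO mouse 4 and -2.01 in the next mouse, an 8.83-fold step. Myl3, the slow essential light chain, was 1.34 there and -2.39 in the next, a 13.3-fold step. Myh7b, chosen after its values were seen, was -2.44 there and -4.17 in the next. Among the members, cKO mouse 4 was 4.61-fold above the next mouse for Tnnc1 and 3.18-fold for Tnnt1. The step was only 1.36-fold for Myoz2 and 1.21-fold for Tnni1. Mybpc1 was highest in cKO mouse 1 at 3.06, with cKO mouse 4 at 3.01. Csrp3 and Ankrd2, stretch-associated genes of the Z-disc region, were also highest there, but by 1.20-fold and 1.35-fold only. The other 4 were highest elsewhere: Sln, the calcium pump inhibitor sarcolipin, in WT mouse 6 at 1.34 (0.0079 in cKO mouse 4), the calcium store protein Casq2 in WT mouse 1 at -1.19 (-1.78), the slow calcium pump Atp2a2 in cKO mouse 2 at 0.83 (0.69) and tropomyosin Tpm3 in cKO mouse 5 at 6.598 (6.27). A list of 7 genes of heart muscle was read as well, and the part of heart tissue in these values was not tested. Mybpc3 and Ryr2 were not above background on any array, Myh6 was -3.73 in cKO mouse 4 and -5.72 to -2.15 elsewhere, and Tnni3 was -3.64 there and -3.84 to -2.24 elsewhere. Tnnt2 and Nppb were lowest in cKO mouse 4, at -1.09 and -2.77, and the atrial peptide gene Nppa was -4.39 there.

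**Figure D4:**
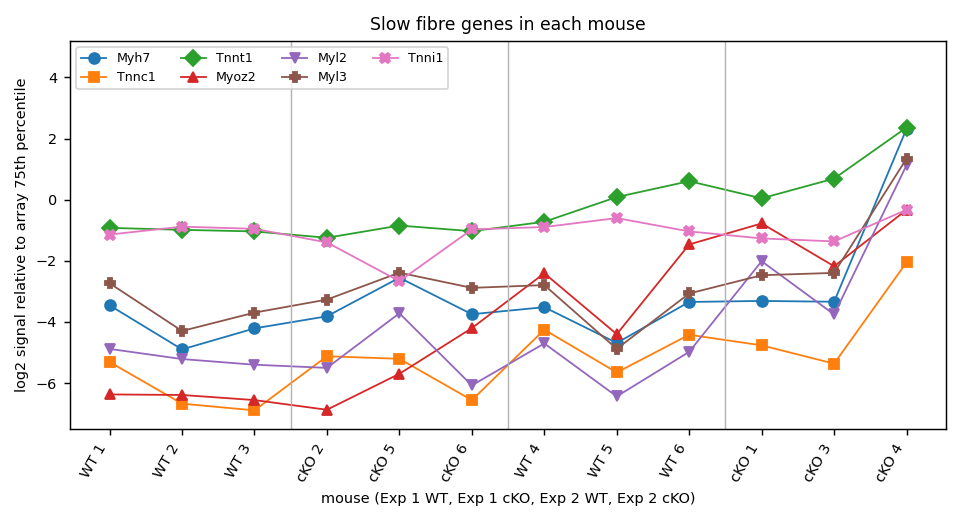
Log2 signal relative to the array's 75th percentile (vertical axis) of 5 slow fibre members and of Myl2 and Myl3 in the 12 mice (horizontal axis); lines join the points of a gene. Myh7, Myl2 and Myl3 reach 2.32, 1.13 and 1.34 in cKO mouse 4 and are negative in the 11 other mice, whereas Tnni1 has no such peak. The slow member Mybpc1 is not drawn.

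Genotype was compared next. Averaged over both experiments none of the 44 members passed in limma, while 0.42% of all genes did. An unadjusted p under 0.05 was found for 12 members and for 12.2% of all genes. The members' median difference, cKO minus WT, was 1.81 against -0.04 over all genes, with 43 positive and Tnni1 negative. The smallest adjusted p were those of Myh1, 3.41 (SE 1.13, adjusted p = 0.28), Myh2, 3.005 (SE 1.12, adjusted p = 0.324), and Tnnt3, 3.23 (SE 1.22, adjusted p = 0.33) in limma. Ttn at 3.58 (SE 1.4, adjusted p = 0.349) and Tcap at 2.74 (SE 1.08, adjusted p = 0.355) in limma followed. The other Ttn probes gave smaller cKO minus WT differences of 2.94, 1.83 and 0.11. No member separated the 6 WT from the 6 cKO mice, as 1.25% of all genes did. In Exp 1 the median was 1.67 and none passed (0.117% of all genes); 6 members had an unadjusted p under 0.05, as had 11.3% of all genes. In Exp 2 it was 1.81 and none passed (0.0618%), with 0 at an unadjusted p under 0.05 (4.67%). All WT arrays of Exp 2 carried the tag P2 in their names and all cKO arrays P1. Tag and genotype therefore cannot be told apart in Exp 2. The difference between the genotype effects had a median of -0.0034 among the members, and none passed (0.00618%), with 0 at an unadjusted p under 0.05 (3.16%).

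Single mice carried these medians. Without WT mouse 5 the median in Exp 2 was -0.18 and the average 0.88. In Exp 1 the cKO mice were split: cKO mouse 2 lay with the WT mice, while cKO mice 5 and 6 lay above them. For Myh1 the values were -3.74, -6.19 and -4.41 in WT and -2.44, 1.06 and 2.45 in cKO skin of Exp 1, a difference of 5.14 (SE 1.6, adjusted p = 0.293) in limma. WT and cKO mice of Exp 1 did not overlap for 15 members (12.9% of all genes): Acta1, Actn3, Myh1, Tnnt3, Tnni2, Neb, Tcap, Mybpc1, Des, Atp2a1, Ryr1, Ckm, Mb, Eno3 and Pgam2. In each of them the highest WT mouse lay below the lowest cKO mouse. The step between those mice ran from 0.071 for Pgam2 to 1.30 for Myh1 and was under 0.1 for Tnni2, Acta1 and Ryr1 too. For Des, at 0.655 one of the wider steps, the values were -0.95, -0.91 and -1.35 in WT and 0.41, 0.63 and -0.26 in cKO mice. In Exp 2 only Myh7 did not overlap (12.6% of all genes), with its highest WT mouse at -3.35 and its lowest cKO mouse at -3.34. Without cKO mouse 2 the Exp 1 median was 2.76, and without cKO mouse 5 it was 1.19.

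Further genes of skeletal muscle, chosen as a list and not as members, moved with the 44. Of 47 such genes 24 were lower in Exp 1 within cKO skin and none higher, with a median of -2.96, and 45 were negative. Of 13 muscle transcription factors and satellite cell genes, 4 were lower and none higher. Myf6, a MyoD relative kept in adult fibres, read -6.34, -6.33 and -6.50 in WT and -6.67, -5.38 and -2.84 in cKO skin of Exp 1, and -0.78, -5.17 and 0.06 in WT and -0.34, -0.71 and -0.96 in cKO skin of Exp 2, and did not pass. Pax7, the satellite cell factor, was above background on 4 arrays and Myf5 on none. Of 6 genes of developing or regenerating muscle, the 2 called were the members Actc1 and Myh8, and embryonic Myh3 was above background on 2 arrays. Of 7 neuromuscular junction genes 2 were lower and 1 higher. Over all 16177 genes, 744 were lower and 870 higher in Exp 1 within cKO skin. The 20 genes outside the 44 whose levels over the 12 mice correlated best with the members' mean had r from 0.983 to 0.997, and 11 of them were on the lists of muscle genes. Cox6a2, a muscle form of a respiratory chain subunit, led at 0.997, followed by Klhl31, Art1, Cmya5 and Klhl41.

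Marker genes of other tissues were read in the same arrays. The 10 smooth muscle genes of vessels and hair-erecting muscles had centred means from -0.46 to 0.31, and Acta2, smooth muscle actin, lay between 4.33 and 5.19. Of them, 2 were higher in Exp 1 within cKO and 1, Synm, lower. The 9 adipocyte genes ranged from -2.87 in cKO mouse 5 to 1.14 in cKO mouse 1, with none called and all negative within cKO (median -1.69). The 11 hair follicle growth genes ranged from -2.50 in cKO mouse 5 to 0.72 in WT mouse 5, with none called. In WT mouse 5 the adipocyte mean of 0.61 and the hair mean of 0.72 were within or above those of the other mice of Exp 2 (0.23 to 1.14 and 0.25 to 0.57), while its muscle mean was not. Of 10 keratinocyte and dermis genes 4 were higher in Exp 1 within cKO and none lower, with a median of 0.58. Over all 16177 genes, 870 were higher and 744 lower in that comparison. The part of these tissues in the muscle differences was not tested.

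**Figure D5:**
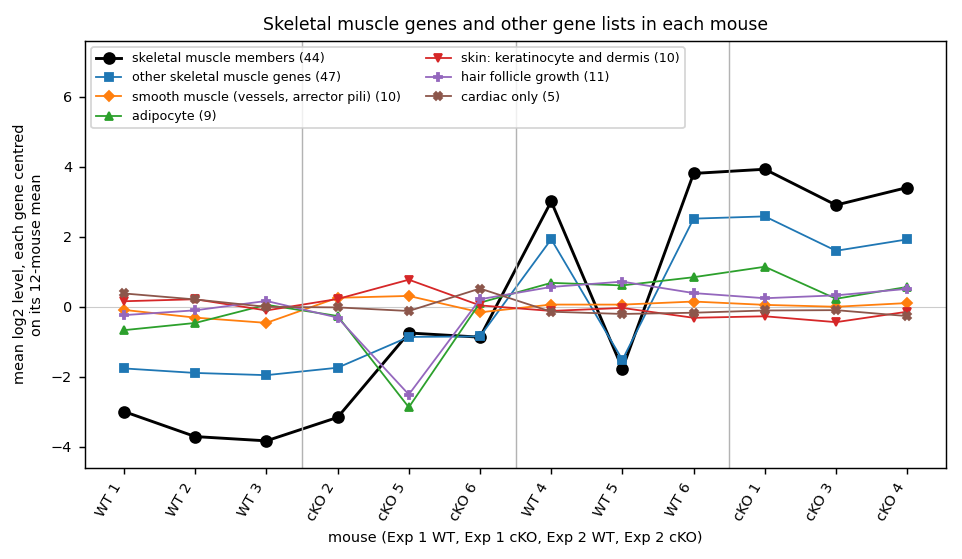
Mean log2 level of each gene list, every gene centred on its mean over the 12 mice (vertical axis), in each mouse (horizontal axis); the number of genes is in the key. The skeletal muscle members run from -3.83 to 3.93 with the other skeletal muscle genes beside them, whereas smooth muscle stays between -0.46 and 0.31.

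Members with several probes gave a check within the arrays. For 10 members there were 12 further probes, and all 12 gave a negative Exp 1 minus Exp 2 difference within cKO, like the probes used. Ttn had 4 probes, of which 3 gave differences of -5.83, -5.66 and -4.23 there, and the fourth, to another transcript, -3.93 with a correlation of 0.68 to the probe used. For Cacna1s the second probe gave -2.81 where the first gave -5.68. In the authors' deposited table of log2 values, the centred mean of the members was highest in cKO mouse 1 at 4.14 and lowest in WT mouse 3 at -2.67. The column for cKO mouse 1 correlated with that mouse's array at only 0.263, so its value there is uncertain. The same 5 mice were high there, from 2.10 to 4.14, and WT mouse 5 lay at -1.60.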

How the data were processed

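Each array gave 1 scanner file. Per the file headers, Feature Extraction 11.5.1.1 wrote gProcessedSignal, an intensity with background subtracted and without scaling across arrays, raw spot and background intensities, and 0 or 1 flags (other values) for outlier, saturated and well-above-background spots. The authors also deposited a table of log2 values. The submitters' processing notes name limma, and its steps are not given in the sources. That table served as an alternative only, because its column for cKO mouse 1 correlated at 0.263 with that mouse's array, where the others reached 0.695 to 0.808. Its scale is log2, its direction was that of the arrays in the other columns, and its centring stays unknown.

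Outlier spots were left out, log2 processed signal was averaged per probe, and each array's 75th percentile was subtracted. Probes kept were well above background on at least 3 of 12 arrays. Of 55681 probes, 27503 had 1 gene symbol through the RefSeq table of GRCm38. The brightest kept probe by mean stood for its gene. The 16177 genes so obtained were fitted as 4 group means with limma 3.58.1 in R 4.3.3 (8 residual and 2.3 prior degrees of freedom), two-sided, with Benjamini-Hochberg adjustment over all genes at 0.05. The fit was also tested on simulated arrays with the means and spreads of these data, drawn independently for each gene. Genes that move together between mice, as the members do, were not simulated. "At least" folds raise values below detection to the lowest signal well above background on the same array. Each mouse is 1 sample, and the number of arrays limits the precision.

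The members and lists were chosen with earlier results of these data known, so lists are described by counts and medians. All members could be named, with full values for 18 that stand for their role and for the 5 with the smallest p per contrast. Of the other lists up to 4 genes by smallest p were eligible. Other non-members named were chosen after their values were seen, except the 20 most alike. Slide, read from the barcode in the file headers, was used as the batch. A tag in the array names, P1 or P2, was P2 for all WT and P1 for all cKO mice of Exp 2. Within cKO, mice 5 and 6 of Exp 1 carried P2 and the others P1. Within WT, mice 1 and 2 of Exp 1 carried P1 and the others P2. Alternatives changed the background correction, scaling, probe filter, probe choice, values used, slide, array-name tag, mouse-number block and mice.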

Additional observations from a re-analysis of the deposited data

How the results depend on the processing

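Each result was recomputed under 26 alternatives, 3 of them chosen after seeing the data: values raised to the detection floor, the authors' deposited table with the column of cKO mouse 1 dropped, and leaving out WT mouse 5 and cKO mouse 5 together. The counts of members past the threshold depended most on the setting. Shares over all genes belong to the main fit, and none is given for the alternatives. Within cKO, Exp 1 minus Exp 2, the 32 calls became 0 with the tag in the array names as a term, 0 in the authors' deposited table (7 without its column of cKO mouse 1, with a median of -3.71), 1 with the slide as a block, 17 with no filter on dim probes, 13 of the 19 members left when a probe had to be above background on all 12 arrays, and 8 within slide 1. Within WT the 1 call became 0 with the tag, in the authors' deposited table, with no filter and with the slide as a block. It became 23 with median scaling, 4 with normexp and quantile normalization, 5 at the detection floor, 2 with the filter on all 12 arrays, 38 within slide 2, and 39 without WT mouse 5 and cKO mouse 5. The cause was not tested.

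Slides 1 and 2 hold 6 and 5 arrays, so that fits within a slide rest on 1 or 2 mice a group. Their counts of calls are printed only to record the alternatives. No conclusion is drawn from these counts, since some groups are single mice and the share of all genes that passed is not given. Whether the calls within a slide concern the muscle genes more than other genes was not tested. Within slide 1 the median of all members was 4.199 for the averaged genotype difference and 6.31 for that in Exp 2 (fast members 6.77). It was -4.24 for the interaction (fast -4.78) and -1.91 for Exp 1 minus Exp 2 within WT (fast -3.23). The slow median within cKO was -1.13. Within slide 2 there were 12 calls for the averaged genotype difference, 25 in Exp 1, 1 in Exp 2 and 15 for the interaction. The medians there were -0.39 in Exp 2 (fast -0.46, slow 1.95), 2.53 for the interaction (fast 3.96, slow -2.17) and -7.16 within WT, and the slow median within cKO was -3.18. In Exp 2 slide 1 holds only WT mouse 5 and cKO mouse 1, so that its genotype difference there compares 1 low mouse with 1 high one. Without WT mouse 5 and cKO mouse 5 it was -0.18 (fast -0.26), and the median within WT was -7.65. With the filter on all 12 arrays the slow median of cKO minus WT in Exp 1 was -0.059.

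Mouse numbers did not pair the mice: the deviations of same-numbered mice correlated between -0.26 and 0.07. With the mouse number as a replicate block, 0 members passed within cKO and 0 within WT. The slow medians under that replicate block were -0.40 for cKO minus WT in Exp 1, -1.82 for the interaction and -0.22 within WT.

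Leaving out each mouse in turn moved the count within cKO between 0 and 39 and that within WT between 0 and 39. The median of all members ran from -5.97 to -4.50 within cKO, -7.65 to -4.15 within WT, 0.88 to 2.49 for the averaged genotype difference, 1.19 to 2.76 in Exp 1, -0.18 to 2.96 in Exp 2 and -0.84 to 1.76 for the interaction. The fast median ran from -6.79 to -4.96, -8.54 to -5.62, 1.26 to 3.06, 1.79 to 4.19, -0.26 to 3.19 and -0.35 to 2.73 in the same order. The slow median ran from -2.56 to -0.99, -1.51 to -1.002, 0.43 to 1.07, 0.41 to 0.83, 0.45 to 1.55 and -1.18 to -0.13.

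Of the genes named, these changed sign. For the averaged genotype difference they were Tnnt1 within slide 1 (-0.084) and, within slide 2, Actc1 (-0.054) and Apobec2 (-0.23). Within WT they were Myh7 (2.56 with the replicate block, 0.36 with the slide as a block, 0.13 within slide 1 and between -0.76 and 0.016 with a mouse left out, the latter without WT mouse 2), Tnnc1 at the detection floor (0.13), Tnni1 and Tnnt1 with the replicate block (0.18 and 0.36) and Actc1 within slide 1 (0.38). Within cKO it was Tnni1 within slide 1 (0.082). Probes near background limit what can be read of Tnnc1 and the genes seen in the 5 high mice only.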
